A study of Mus musculus with 20 samples.

Results

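The uteri of 3 mice that received bisphenol A (BPA) were set against those of 2 mice that received estradiol (E2), all collected 24 h after a single injection. These 5 arrays, of 20 in the series, were chosen by the treatment and time that the labels give them. All animals were female C57bl6/J mice of at least 10 weeks that had been ovariectomized and rested for 10 to 14 days, so that the 5 uteri shared the loss of the ovaries. The BPA group (replicates 1, 2 and 3) received 750 µg BPA and the E2 group (replicates 2 and 3) received 250 ng E2, each subcutaneously in 100 µl sesame oil. The doses thus differed, each compound was given at a single dose, and every value below belongs to these doses. A vehicle group of 3 mice received the oil alone and was labelled as collected at 24 h. For the earlier time, uteri taken 2 h after the same doses of BPA (3 mice) and E2 (3 mice) were used. HPTE, a metabolite of the insecticide methoxychlor, was given at 750 µg to 3 further mice whose 24 h uteri are mentioned beside the cell cycle genes. Each array held the RNA of 1 whole uterus, a mixture of epithelium, stroma, muscle, vessels and resident blood cells.

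E2 is the main ovarian estrogen, a steroid that binds estrogen receptor alpha in the nucleus of uterine cells. BPA, a building block of polycarbonate plastic, is a nonsteroidal bisphenol that binds the same receptor with much lower affinity. In the rodent uterus a dose of E2 is followed by an early phase of water uptake and new transcription and by a late phase in which epithelial cells replicate their DNA, divide and begin to secrete. Cells replicate DNA in S phase under factors of the E2F family (a name unrelated to estradiol), and transcripts for mitosis, needed later, are switched on by complexes that bind CCAAT boxes and cell cycle homology regions in promoters.

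At 24 h the BPA uteri differed from the E2 uteri at most probes. Transcripts for DNA replication, cholesterol synthesis, ribosome assembly and protein folding were lower in BPA, where their levels were near those of vehicle. Mitotic transcripts were also lower in BPA than in E2 but lay above vehicle in both. Of the markers tested, 13 of 15 for endothelium and 11 of 15 for T and NK cells were higher in BPA than in E2, with 1 lower in each. Of 14 stromal fibroblast markers 5 were higher, 2 were lower and 7 did not pass, against 33.9% higher and 26% lower over all probes tested. Of 41174 probes, 30927 were tested, namely those well above background on every BPA array or on both E2 arrays. In limma, 18525 passed an adjusted p of 0.05 (59.9% of the probes tested). Of these, 10497 were higher in BPA (33.9%) and 8028 were lower (26%). With at least a 2-fold difference as well, 4206 were higher and 2747 lower, and at 8-fold or more 194 were higher and 153 lower. All BPA arrays lay on 1 side of both E2 arrays for 18427 of the called probes, and this was so for 76.3% of all probes tested. With so large a share called, a gene list with most members past the threshold does not by itself stand apart, and each list below is read against 33.9% higher and 26% lower.

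The split between directions depended on scaling. Levels are log2 intensities relative to the 75th percentile of the same array, so that 0 is that percentile. With this scaling 56.7% of calls were higher in BPA, against 46.2% for unscaled arrays and 44.4% after scaling to spike-in controls, where the calls fell to 8551 (3799 higher and 4752 lower). The median difference over all probes was 0.10 in log2. It also varied with level. When probes were split into 3 equal sets by level, the median of the lowest set was 0.35, with 3894 probes higher and 1170 lower. The highest set had a median of -0.14, with 2680 higher and 4285 lower. With quantile normalization the 3 medians were 0.01, 0.02 and 0.01. That method gives every array the same distribution, so these medians largely follow from it and do not show which scaling is right. On the 1 slide that held both groups (BPA replicate 1 and E2 replicate 3), 99.9% of the 18520 called probes with a value had the same sign, with a median over all tested probes of 0.11. Both arrays are among those that gave the calls, so this share was largely set in advance and does not test an effect of slide. P-values measure the spread between these animals and their arrays.

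**Figure D1:**
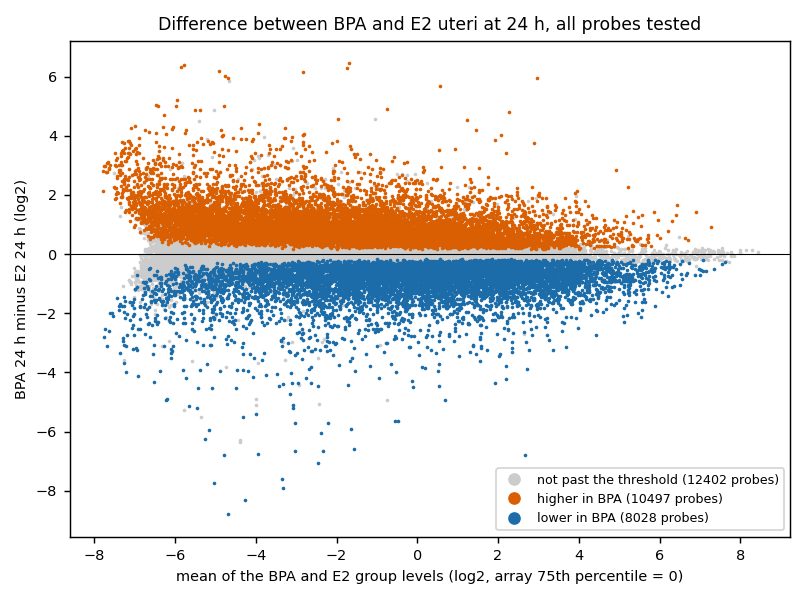
Difference between the BPA and E2 group means at 24 h (vertical axis, log2, BPA minus E2) against the mean of both groups' levels (horizontal axis, log2, the 75th percentile of the array being 0), 1 point per tested probe. Orange points (10497) were higher in BPA, blue points (8028) were lower and grey points did not pass the threshold; orange outnumbers blue at low levels and blue outnumbers orange at high levels.

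Set against vehicle on the same probes, 3797 differed for BPA (12.3%) and 20006 for E2 (64.7%). Both comparisons use the same 3 vehicle arrays. Probes higher in BPA than in E2 had a median of -0.07 for BPA minus vehicle and of -0.94 for E2 minus vehicle. Probes lower in BPA had medians of 0.03 and 0.83. Because these sets were chosen by the difference between the same arrays, the medians are a description. At 2 h, 6042 of the same probes differed between BPA and E2 (19.5%), and the difference between the compounds changed from 2 h to 24 h at 16468 probes (53.2%). Probes higher in BPA at 24 h had a median 2 h difference of -0.10, and those lower had 0.05.

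Within groups the arrays correlated across probes at 0.989 to 0.991, and between the groups at 0.939 to 0.955. The median SD of a probe was 0.10 in BPA and 0.13 in E2. Signal stood well above background at 72.7% to 81.3% of probes on each array. Markers of the expected tissue were present on all 5 arrays: the 15 epithelial, 15 smooth muscle, 14 stromal and 15 endothelial markers were well above background throughout. Summed on the linear scale, epithelial markers reached 139 to 146 in BPA and 285 and 316 in E2, against 100 to 117 in vehicle. Of these 15 markers 12 were lower in BPA and none was higher. Krt7, a keratin of simple epithelium, was at 2.99, 2.99 and 3.23 in BPA and at 5.79 and 5.81 in E2, and differed by -2.74 ± 0.14 (SE; adjusted p = 1.3e-09), while Krt18, another such keratin, was at 6.10, 6.16 and 5.88 against 5.88 and 6.07 (adjusted p = 0.734). In whole uteri fewer cells of a type and less RNA per cell cannot be told apart.

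Endothelial markers moved the opposite way, with 13 of 15 higher in BPA and 1 lower. Their sum was 68.4 to 72.0 in BPA, 44.9 and 42.1 in E2 and 60.8 to 66.5 in vehicle. Vwf, the clotting protein of vessel walls, was 1.89 ± 0.21 higher in BPA (adjusted p = 1.68e-06), and the exception was Plvap, a protein of fenestrated vessels, at -1.07 ± 0.15. Macrophage markers summed to 151 to 164 in BPA, 64.7 and 62.5 in E2 and 95.1 to 106 in vehicle, with 6 of 12 higher in BPA and none lower. Csf1r, the receptor for the growth factor of macrophages, was at 1.53, 1.39 and 1.65 in BPA and at -0.26 on both E2 arrays. T and NK cell markers were higher in BPA for 11 of 15 and lower for 1, and mast cell markers were higher for 6 of 8 and lower for none.

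Some marker lists stood apart on single arrays or in a single group. B cell and plasma cell markers summed to 15.7, 36.4 and 16.2 in BPA, highest in replicate 2, against 4.19 and 8.82 in E2. Lymph node markers summed to 1.43, 1.50 and 0.61 in BPA and to 0.20 and 0.29 in E2. Markers of pancreatic acinar cells summed to 6.38 and 17.4 in E2 but to 0.76 to 1.14 in BPA and 0.79 to 0.94 in vehicle, with 5 of 17 lower in BPA and none higher. The digestive enzymes Pnlip and Cpa1 were above background on no BPA array and at least 105-fold and 118-fold higher in E2 (adjusted p = 0.0142 and 0.0285). Skeletal muscle markers were also highest in E2 (29.2 and 39.7, against 9.29 to 12.9 in BPA), 1 of 6 being higher in BPA and 2 lower. Markers of maturing sperm cells summed to 39.9 to 134 in vehicle, 4.82 to 8.28 in BPA and 1.99 and 2.65 in E2, 9 of 11 being higher in BPA. The part of these cell types in the differences below was not tested.

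**Figure D2:**
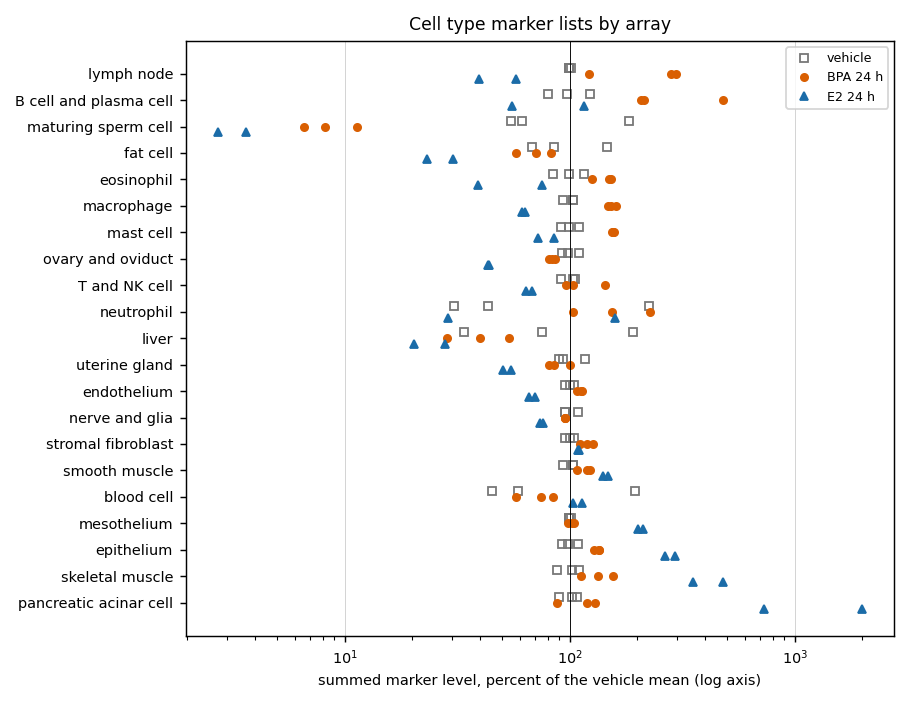
Summed linear level of each cell type's marker list on every array (horizontal axis, log scale, percent of the vehicle mean), for vehicle (open squares), BPA at 24 h (orange circles) and E2 at 24 h (blue triangles). Pancreatic, skeletal muscle, epithelial and mesothelial markers lie further right in E2 than in BPA, and the mesothelial list shares Krt19 with the epithelial list. Macrophage, mast, B cell and lymph node markers lie further right in BPA than in E2, with B cell markers highest on 1 BPA array.

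Cell cycle transcripts separated into those of mitosis and those of DNA replication. Of 42 genes for mitosis, 38 were lower in BPA than in E2, 1 was higher and 3 did not pass, with a median difference of -1.17 (-0.96 on the shared slide) against 0.10 over all probes. Against vehicle, 36 were higher and 1 lower with BPA, and 39 were higher and 1 lower with E2. The list's median shift from the vehicle mean was 1.68, 1.27 and 1.56 on the BPA arrays and 2.64 and 2.62 on the E2 arrays, which did not overlap. All 47 genes for DNA replication were lower in BPA, with a median of -1.54 (-1.56 on the shared slide). With E2 all 47 were above vehicle, but with BPA only 1 was higher and 5 were lower, and the median shifts were 0.05, 0.05 and -0.01 in BPA and 1.36 and 1.42 in E2. The BPA arrays therefore lay between vehicle and E2 for mitosis and at vehicle for replication. The 3 HPTE arrays at 24 h had shifts of 2.32, 2.42 and 2.33 for mitosis and of 0.40, 0.56 and 0.32 for replication. At 2 h the median differences between BPA and E2 were 0.25 and -0.02.

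The promoters of 3 of these genes are shown because the share of genes with the marked letters was unlike in the mitosis and replication lists. Ube2c codes for a ubiquitin-conjugating enzyme of the anaphase-promoting complex, Ccnb2 for cyclin B2 and Orc1 for the large subunit of the origin recognition complex that licenses replication. Each sequence runs from 250 bases before to 50 after the RefSeq start on GRCm38.p6, at chr2:164769679-164769978 (plus strand), chr9:70421505-70421804 (minus strand) and chr4:108579204-108579503 (plus strand). Capitals mark CCAAT or its reverse ATTGG, which can overlap as in the first promoter, and the letters TTTGAA or TTCGAA of the cell cycle homology region or their reverse.
Ube2c: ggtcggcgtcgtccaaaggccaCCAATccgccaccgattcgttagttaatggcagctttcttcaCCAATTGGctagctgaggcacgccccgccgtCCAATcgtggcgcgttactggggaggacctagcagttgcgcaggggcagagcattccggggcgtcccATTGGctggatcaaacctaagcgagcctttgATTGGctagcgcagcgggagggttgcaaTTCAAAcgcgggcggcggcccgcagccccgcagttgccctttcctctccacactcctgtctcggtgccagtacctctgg
Ccnb2: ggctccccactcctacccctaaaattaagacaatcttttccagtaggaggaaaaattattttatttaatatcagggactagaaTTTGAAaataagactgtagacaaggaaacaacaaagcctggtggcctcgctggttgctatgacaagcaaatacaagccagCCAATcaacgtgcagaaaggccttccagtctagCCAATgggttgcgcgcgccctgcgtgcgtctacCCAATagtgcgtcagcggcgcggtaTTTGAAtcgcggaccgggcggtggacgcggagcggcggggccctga
Orc1: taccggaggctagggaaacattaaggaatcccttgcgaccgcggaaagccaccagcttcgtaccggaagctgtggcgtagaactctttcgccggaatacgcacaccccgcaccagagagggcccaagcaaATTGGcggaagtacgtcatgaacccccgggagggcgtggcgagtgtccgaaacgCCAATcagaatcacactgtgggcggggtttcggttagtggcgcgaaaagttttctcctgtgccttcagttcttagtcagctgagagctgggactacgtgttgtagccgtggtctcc
Ube2c holds CCAAT 6 times and the homology letters once, Ccnb2 3 times and 2 times, and Orc1 CCAAT 2 times and no homology letters. Of 35 mitosis genes with a RefSeq promoter, 25 held both (71.4%), against 8.61% of all 27025 genes with one. Of 37 replication genes 5 held both (13.5%) and 7 the homology letters (18.9%, against 21.7% of all genes). CCAAT, with or without the homology letters, was in 80% of mitosis, 59.5% of replication and 41.1% of all genes. The consensus estrogen response element, GGTCA and TGACC with 3 bases between them, was in this window in no mitosis or replication gene and in 20 genes in all (0.0740%). A match of letters is a description and not a bound site.

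Among the mitotic genes Ube2c was at 0.26, -0.23 and 0.08 in BPA, at 1.60 and 1.62 in E2 and at -1.92, -1.93 and -2.08 in vehicle. The 3 groups did not overlap, and BPA was 1.57 ± 0.22 below E2 (adjusted p = 2.08e-05) and 2.01 above vehicle (adjusted p = 9.71e-05). Ccnb2 lay at 2.25, 1.78 and 2.20 in BPA, 3.07 and 3.27 in E2 and 0.55, 0.20 and -0.15 in vehicle, in the same order, and differed between BPA and E2 by -1.10 ± 0.24 (adjusted p = 0.00119). Cdk1, the kinase that drives entry into mitosis, differed by -1.64 ± 0.19 on 1 probe and by -0.07 on another that did not pass (adjusted p = 0.93). Aurkb, a kinase of chromosome segregation, was 1.31 ± 0.21 lower in BPA. The largest difference was for Mad2l1, of the spindle checkpoint, at -2.07 ± 0.28, with BPA 0.41 from vehicle (adjusted p = 0.3) and E2 2.48 above it. Mki67, the proliferation antigen Ki67, was at 2.86, 2.51 and 2.60 in BPA and 3.42 and 3.32 in E2, against 0.67 to 0.87 in vehicle, and differed by -0.72 ± 0.23 (adjusted p = 0.0139). Cenpf, a kinetochore protein, did not pass between BPA and E2 (-0.28 ± 0.23, adjusted p = 0.313) and was 1.92 and 2.20 above vehicle. Pttg1, the securin that holds chromatids together, was the member higher in BPA, by 0.29 (adjusted p = 0.00943). It lay below vehicle in both groups, and its call was lost without E2 replicate 3 (adjusted p = 0.0881), when arrays were not scaled (0.423) and under spike-in scaling (0.759).

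Of the replication genes, Orc1 was at -5.53, -5.21 and -6.21 in BPA, -2.10 and -2.03 in E2 and -5.20 to -5.42 in vehicle. It was 3.59 ± 0.25 lower in BPA than in E2 (adjusted p = 2.18e-08), and BPA minus vehicle was -0.37 (adjusted p = 0.314). Cdc6, which loads the replicative helicase, differed by -3.23 ± 0.25, cyclin E1 (Ccne1) by -3.15 ± 0.35 and the helicase subunit Mcm2 by -2.58 ± 0.14. Mcm2 was also 0.49 below vehicle with BPA (adjusted p = 0.0208). Pcna, the sliding clamp of DNA polymerase, was at 3.02, 2.97 and 2.89 in BPA, 4.53 and 4.65 in E2 and 2.96 to 3.09 in vehicle, so that BPA and vehicle overlapped. The gene of this list that was above vehicle with BPA was Tk1, for thymidine kinase, at 0.06, -0.21 and -0.13 in BPA, 2.19 and 2.14 in E2 and -1.22 to -1.47 in vehicle (BPA minus vehicle 1.27, adjusted p = 0.00146).

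**Figure D3:**
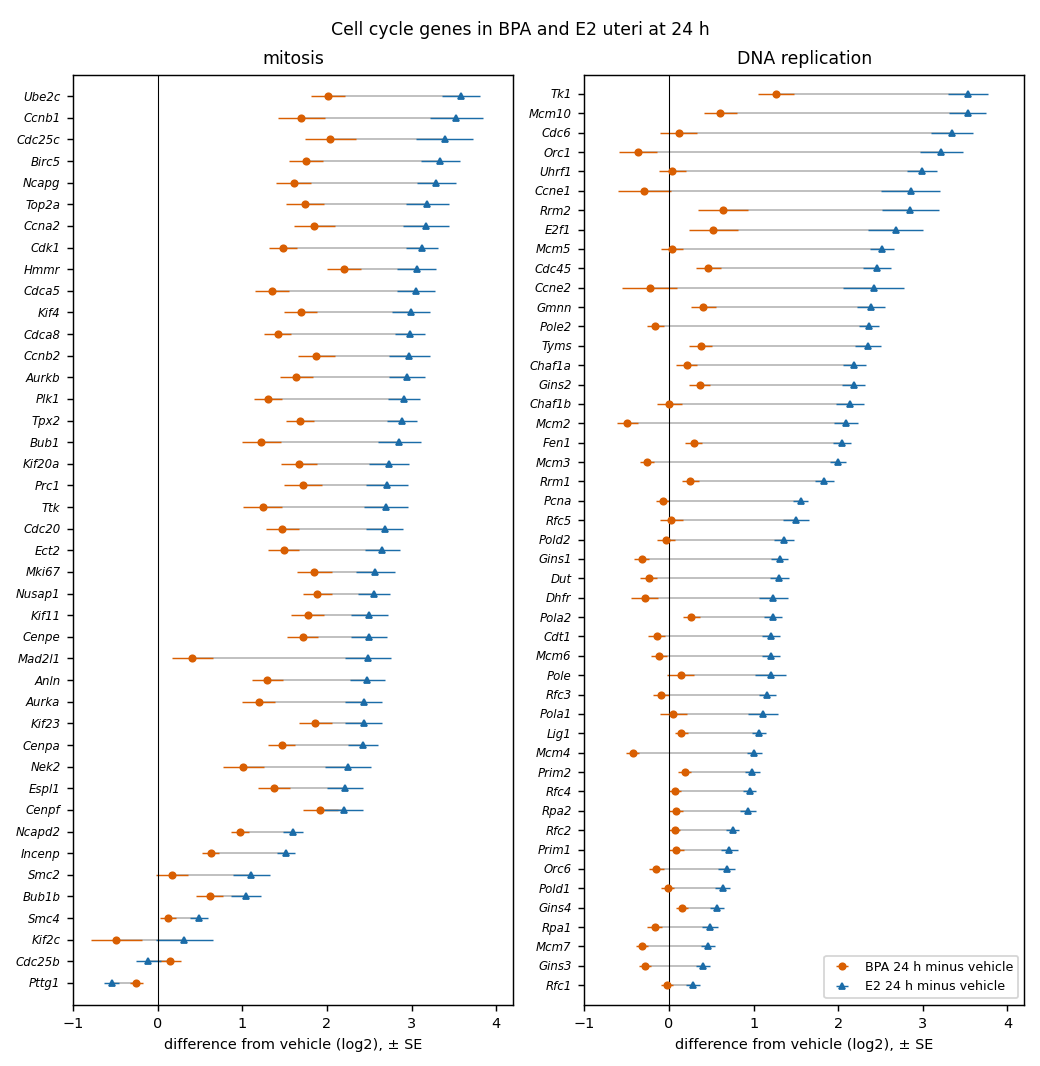
Difference from vehicle at 24 h (horizontal axis, log2, with SE) for BPA (3 arrays, orange circles) and E2 (2 arrays, blue triangles), 1 row per gene, for 42 mitosis genes (left) and 47 DNA replication genes (right). Most mitotic genes lie right of 0 in both with BPA nearer to 0, while replication genes lie near 0 in BPA and to its right in E2.

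**Figure D4:**
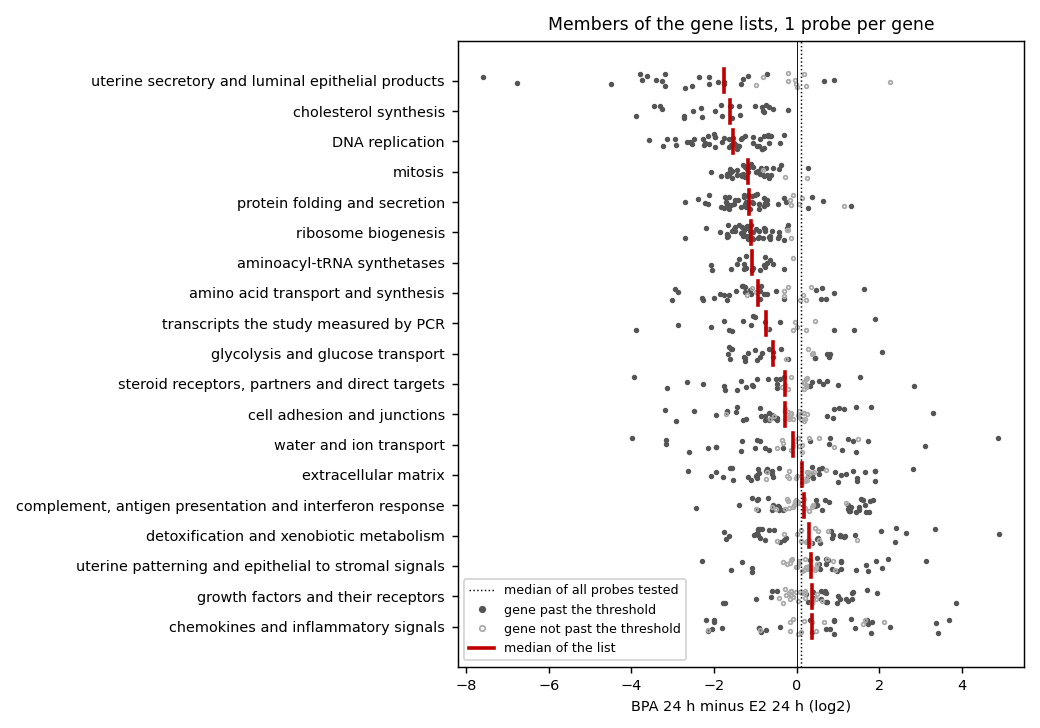
BPA minus E2 at 24 h (horizontal axis, log2) for each tested member of the 19 gene lists, 1 point per gene, with the list median in red and the median of all probes (0.10) dotted. Secretory, cholesterol, replication, mitosis and protein synthesis lists lie to the left, and growth factor, patterning and chemokine lists have medians just right of 0 with members on both sides.

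Genes of growth and biosynthesis were lower in BPA. All 25 genes of cholesterol synthesis were lower, with a median of -1.62 (-1.79 on the shared slide). All 25 were above vehicle with E2, and with BPA 3 were higher and 1 lower. Median shifts from vehicle were 0.05, -0.10 and 0.02 in BPA and 1.66 and 1.82 in E2. Fdps, which makes farnesyl diphosphate, was at 0.33, 0.18 and 0.40 in BPA, 3.74 and 3.79 in E2 and -0.12 to 0.01 in vehicle, a difference of -3.46 ± 0.16 (adjusted p = 6.61e-10). Sqle, squalene epoxidase, differed by -3.32 ± 0.20. CCAAT was in the promoters of 17 of 18 of these genes with one (94.4%).

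For ribosome biogenesis 46 of 49 genes were lower in BPA and none higher, with a median of -1.09. Against vehicle 45 were higher with E2 and none lower, and with BPA 13 were lower and 2 higher. Rrp12, which exports ribosomal subunits, was at -3.69, -3.37 and -3.74 in BPA, with both E2 arrays above them (-2.71 ± 0.25). Fbl, the fibrillarin that methylates ribosomal RNA, was at 4.82, 4.92 and 4.86 in BPA and 6.28 and 6.46 in E2 (-1.50 ± 0.08), and Nop56, its partner, was 1.51 ± 0.12 lower in BPA than in E2 and 0.56 below vehicle with BPA. The transcription factor Myc was 0.91 ± 0.24 lower in BPA, which lay 0.72 below vehicle, while E2 was 0.20 from vehicle (adjusted p = 0.501). Of 20 aminoacyl-tRNA synthetases 19 were lower in BPA and none higher (median -1.07), and all 20 were above vehicle with E2. Mars1, for methionine, differed by -2.07 ± 0.16.

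In protein folding and secretion 44 of 54 genes were lower in BPA and 4 higher, with a median of -1.15. Sdf2l1, a protein of the endoplasmic reticulum, differed by -2.70 ± 0.47, and the chaperones Calr and Hspa5 by -2.11 ± 0.16 and -1.70 ± 0.13. Hspa5 lay at 3.97, 4.09 and 3.78 in BPA, 5.53 and 5.76 in E2 and 4.11 to 4.23 in vehicle. Ddit3, a stress-induced factor, went the other way, at 0.72, 0.69 and 0.59 in BPA and -0.47 and -0.82 in E2, and was 1.31 ± 0.17 higher in BPA, where it did not pass against vehicle (adjusted p = 0.993). The count of higher members fell from 4 to 2 without BPA replicate 1 or without E2 replicate 2 and to 1 without E2 replicate 3. In amino acid transport and synthesis 24 of 40 were lower and 6 higher (3 higher without E2 replicate 2 or on unscaled arrays, 1 under spike-in scaling), with a median of -0.93. Pycr1, of proline synthesis, was 3.01 ± 0.65 lower and the taurine transporter Slc6a6 1.64 ± 0.13 higher in BPA. Odc1, the ornithine decarboxylase of polyamine synthesis, was at 3.72, 3.71 and 3.82 in BPA and 5.42 and 5.79 in E2. For glycolysis and glucose transport 18 of 29 were lower and 7 higher (13 and 1 under spike-in scaling), with a median of -0.58. G6pdx, which opens the pentose phosphate pathway, was 1.66 ± 0.12 lower and lactate dehydrogenase A (Ldha) 1.63 ± 0.09 lower. Pdk4, a kinase that turns off pyruvate dehydrogenase, was 2.08 ± 0.43 higher in BPA, where it did not pass against vehicle (-0.03, adjusted p = 0.976).

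Several of the genes furthest lower in BPA code for products of epithelial cells. Sprr2f, a small proline-rich protein of epithelial cell envelopes (probe at chr3:92472374-92472433 on mm7), was at -0.61, -1.78 and 0.25 in BPA, 5.96 and 6.16 in E2 and -1.80 to -1.57 in vehicle. BPA and vehicle overlapped, and E2 was 109.5-fold above BPA (-6.78 ± 0.49, adjusted p = 2.72e-08). Sprr2d of the same family differed by -7.59 ± 0.49 and was well above background on only 1 of 3 BPA arrays. For Sprr2a1 a probe differed by -6.60 ± 0.42 and another by -0.03 (adjusted p = 0.811). The members of this family have near-identical sequences, so a signal may belong to more than 1 of them. Sprr1a, a related envelope protein, differed by -5.64 ± 0.47.

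Hair keratins were also among the genes furthest lower in BPA. Krt85 was at -6.37, -6.38 and -4.26 in BPA and 0.91 and 1.05 in E2 (-6.65 ± 0.77), and it was well above background on no vehicle array. Krt87 was at -5.40, -5.63 and -6.02 in BPA and at -0.50 and -0.44 in E2 (-5.21 ± 0.31). Krt6a, a keratin of stressed epithelium, was on no BPA array above background and at least 29.4-fold higher in E2, where its arrays lay apart (-4.51 and 0.28). Without E2 replicate 3 its difference was -3.87 and its call was lost (adjusted p = 0.0538).

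Uox, the urate oxidase, was at -4.84, -6.38 and -5.00 in BPA, 0.30 and 0.95 in E2 and -5.02 to -4.89 in vehicle (-6.03 ± 0.42). A further probe for it was at least 48.7-fold higher in E2. Aoc1, the diamine oxidase that breaks down histamine and polyamines, was at -5.27, -5.12 and -3.37 in BPA and 1.53 and 1.12 in E2 (-5.91 ± 0.44). Fam3b, a secreted cytokine-like protein, differed by -5.70 ± 0.36, and Crtac1, a secreted matrix protein, by -5.63 ± 0.22. Unc5cl, an epithelial protein of the UNC5 family, had the smallest p of all these (-5.69 ± 0.18, adjusted p = 1.56e-10), with BPA at -4.98, -4.98 and -5.19, E2 at 0.57 and 0.71 and vehicle at -6.21 to -5.71. It was 0.99 above vehicle with BPA (adjusted p = 0.00145). Also above background on no BPA array were Gsdmc2, a gasdermin (at least 26.8-fold higher in E2), Adgrg7, an adhesion receptor (at least 14.9-fold), and Atp13a4, a transport ATPase (at least 13.3-fold).

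Over the list of secretory and luminal products, 22 of 34 tested genes were lower in BPA, 2 were higher and 10 did not pass, with a median of -1.75 (-1.63 on the shared slide). Against vehicle 24 were higher with E2 and 7 with BPA, and none was lower with either. Lactoferrin (Ltf), the iron-binding protein of uterine fluid, was at 1.72, 1.20 and 2.25 in BPA, 5.05 and 4.91 in E2 and 2.08 to 2.43 in vehicle (-3.25 ± 0.50, adjusted p = 4.58e-05). Lcn2, a lipocalin, differed by -4.49 ± 0.20, with BPA overlapping vehicle. The mucin Muc1 was at -2.19, -2.26 and -2.03 in BPA and 0.50 and 0.25 in E2 (-2.53 ± 0.38), and was 1.23 above vehicle with BPA (adjusted p = 0.0285). Complement C3, a secreted product of the epithelium, did not pass between the groups (0.17 ± 0.31, adjusted p = 0.659). Cxcl15, a chemokine made by glands, was 0.90 higher in BPA (adjusted p = 0.0484), a call lost when any 1 of the 5 arrays was left out (adjusted p 0.0665 to 0.227).

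Transport and junction genes were divided. For water and ion transport 15 of 39 were lower in BPA and 10 higher (6 under spike-in scaling), with a median of -0.10. The carbonic anhydrases Car12 and Car2 were lower in BPA (-3.98 ± 0.27 and -3.15 ± 0.23). Car12 was at -2.59, -2.80 and -2.14 in BPA, 1.53 and 1.39 in E2 and -3.31 to -2.44 in vehicle. Car4, a carbonic anhydrase on the cell surface, ran the other way and was at least 14.5-fold higher in BPA, with no E2 array above background. The water channels Aqp5 and Aqp8 differed by -1.95 ± 0.34 and -3.17 ± 0.35, and the chloride channel Cftr by -2.16 ± 0.22. Scnn1g, a subunit of the epithelial sodium channel, was above background on no E2 array and at least 4.69-fold higher in BPA (adjusted p = 6.68e-05).

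For adhesion and junctions 21 of 51 were lower in BPA and 8 higher, or 13 and 5 under spike-in scaling (median -0.29). Gjb2, the gap junction protein connexin 26, was at -0.20, -0.05 and 0.23 in BPA and 3.23 and 3.12 in E2 (-3.18 ± 0.42). Cldn7, a tight junction claudin, was 2.49 ± 0.15 lower, and Cdh1, E-cadherin, 0.89 ± 0.15 lower. Cldn1, another claudin, was higher in BPA, at -1.08, -1.21 and -1.42 in BPA, -4.23 and -4.85 in E2 and -1.11 to -0.91 in vehicle (3.30 ± 0.35), and Cldn5, of endothelial junctions, was 1.81 ± 0.14 higher. Cldn3 was lower (-0.68, adjusted p = 0.0115), and Cldn4 did not pass (-0.63, 0.227). Spp1, the adhesive protein osteopontin, did not pass (adjusted p = 0.908), with BPA at 2.64, 0.34 and 3.24 and E2 at 1.90 and 2.04.

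Steroid receptors, their partners and known targets included 18 of 38 lower in BPA, 9 higher and 11 that did not pass (median -0.29). For unscaled arrays 5 were higher, and after spike-in scaling 3. Pgr, the progesterone receptor and a target of E2, was at -1.94, -1.70 and -1.93 in BPA, -1.03 and -0.74 in E2 and -1.98 to -1.78 in vehicle (-0.97 ± 0.10, adjusted p = 9.93e-07). Greb1, another direct target, was 1.07 ± 0.19 lower. Esr1, the gene of estrogen receptor alpha, did not pass (0.23 ± 0.21, adjusted p = 0.376). Ccnd1, cyclin D1, was 1.22 ± 0.19 lower in BPA than in E2 and, with BPA, 0.71 below vehicle (adjusted p = 0.0121). The calcium-binding protein S100g was 1.18 above vehicle with BPA and 1.55 above it with E2, and did not pass between them (-0.37 ± 0.21, adjusted p = 0.144). Fkbp4, a co-chaperone of steroid receptors, was 1.44 ± 0.15 lower.

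Enzymes that handle steroids stood at the ends of this list. Hsd17b2, which oxidizes estradiol to the weaker estrone, was at least 6.06-fold higher in E2 and above background on no BPA array (adjusted p = 9.85e-06). Sts, which frees estrogens from their sulfates, was at 1.54, 1.76 and 1.48 in BPA, -1.04 and -1.47 in E2 and 1.79 to 1.99 in vehicle (2.85 ± 0.24). Ihh, the hedgehog ligand of the epithelium, was 1.53 ± 0.41 higher in BPA, with E2 1.80 below vehicle.

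Most of the 10 genes furthest higher in BPA lay nearer to vehicle in BPA than in E2. Slc5a11, a sodium-coupled transporter of myo-inositol (probe at chr7:119375760-119375819 on mm7), was at 1.32, 1.30 and 1.60 in BPA, -4.19 and -5.58 in E2 and -0.12 to 0.18 in vehicle. It was 78.2-fold higher in BPA than in E2 (6.29 ± 0.44, adjusted p = 2.16e-08) and 1.39 above vehicle with BPA (adjusted p = 0.0333). Coch, the matrix protein cochlin, was at 0.14, 0.63 and 0.01 in BPA and -5.69 and -6.12 in E2, with vehicle at -0.13 to 0.53 (6.16 ± 0.35). A further Coch probe was above background on no E2 array and at least 36.3-fold higher in BPA. Aldh1a3, which makes retinoic acid, was 4.89 ± 0.31 higher, with BPA at 1.50 to 1.81 and E2 at -2.65 and -3.75. Inmt, an indole methyltransferase, was at 4.99, 4.71 and 4.32 in BPA, 0.04 and -0.30 in E2 and 4.35 to 4.66 in vehicle (4.80 ± 0.20). Pamr1, a secreted protein with a peptidase domain, was 4.04 ± 0.24 higher, and Kcne2, a subunit of potassium channels, 4.40 ± 0.61 higher.

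Of genes with no E2 array above background, Speer4cos was at least 34.4-fold higher in BPA, Lgi1, a secreted glycoprotein, at least 24.8-fold, and Ano2, a calcium-activated chloride channel, at least 18.9-fold. Ano2 was at -2.50, -2.43 and -3.14 in BPA and -1.62 to -1.50 in vehicle, so that BPA was 1.12 below vehicle (adjusted p = 0.0138). In all, 485 probes were above background on every BPA array and on no E2 array (455 of them called), and 96 the reverse (82 called). Each was tested only because it stood above background in the group where it was bright, so its call was largely set in advance. In the set of probes lowest in level, the median difference was 0.35, and 0.01 with quantile normalization. How far the counts of 485 and 96 follow from such a tilt at low levels was not tested.

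Other genes at the top of this list include some of blood cells. Igh-6, the heavy chain of IgM, was at 2.60, 5.08 and 2.54 in BPA and -2.36 and -2.19 in E2 (5.68 ± 1.40, adjusted p = 0.00259), and its other probes differed by 2.54 and by 2.64, of which the latter did not pass (adjusted p = 0.158). Ms4a1, which codes for the B cell protein CD20, was at -0.70, 0.07 and -1.83 in BPA and -5.18 and -4.52 in E2 (4.03 ± 0.79). Marco, a scavenger receptor of macrophages, was at -0.48, 1.86 and -0.43 in BPA and -4.34 and -4.16 in E2 (4.57 ± 1.55, adjusted p = 0.0192). Its call was lost without BPA replicate 2 (adjusted p = 0.0705) or without either E2 array (0.0818 and 0.0746). Apart from these blood cell genes, F10, coagulation factor X, was at -0.25, -1.98 and -0.10 in BPA and -5.26 and -4.40 in E2 (4.05 ± 0.82). For Igh-6, Ms4a1 and Marco the highest value was on BPA replicate 2, the array with the highest sum of B cell markers (36.4, against 15.7 and 16.2).

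**Figure D5:**
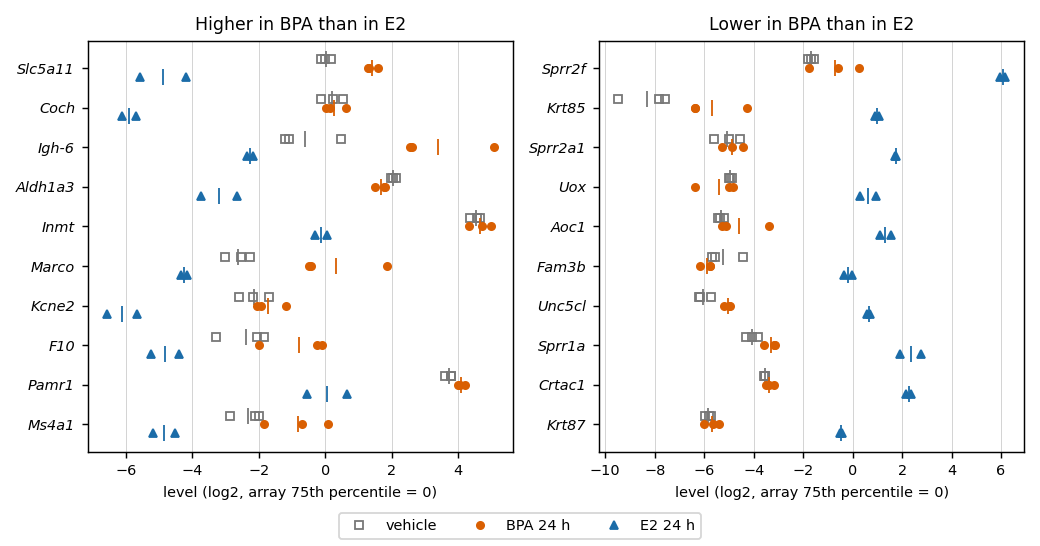
Levels (horizontal axes, log2, the 75th percentile of the array being 0) on every vehicle (open squares), BPA 24 h (orange circles) and E2 24 h (blue triangles) array for the 10 genes furthest higher (left) and the 10 furthest lower (right) in BPA among probes above background on all 5 arrays; short bars are group means. BPA lies near vehicle and apart from E2 in most rows, and Igh-6 and Marco have 1 BPA array above the others.

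Growth factors and signals between stroma and epithelium held members on both sides. Of 51 growth factors and receptors 23 were higher in BPA and 6 lower, with a median of 0.37 (0.27 on the shared slide). For unscaled arrays 15 were higher, and after spike-in scaling 10 were higher and 3 lower. Against vehicle 26 were lower and 5 higher with E2, and 1 was lower and 1 higher with BPA. Igfbp3, which binds insulin-like growth factors, was at 3.92, 4.06 and 3.59 in BPA, 0.04 and -0.03 in E2 and 3.73 to 3.85 in vehicle (3.85 ± 0.14, adjusted p = 2.09e-10). Igf1 itself, the stromal growth factor that acts on the epithelium, went the other way, at 1.57, 1.20 and 1.57 in BPA, 3.00 and 3.48 in E2 and 1.07 to 1.27 in vehicle (-1.79 ± 0.20). Its further probes differed by -1.80 and -0.73. The receptors Fgfr2 and Pdgfra were 1.37 ± 0.13 and 1.04 ± 0.10 higher, and Bmp4, a stromal ligand, 1.71 ± 0.15 higher. Vegfa, the vascular growth factor, was 0.61 ± 0.22 lower in BPA than in E2 and, with BPA, 0.81 below vehicle (adjusted p = 0.0132).

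Of 49 patterning and epithelial-stromal signal genes 20 were higher in BPA (13 without E2 replicate 3 or with no scaling, 9 with spike-in scaling) and 5 lower, with a median of 0.36 (0.33 on the shared slide). Wnt11 was at -1.11, -1.12 and -1.14 in BPA, -4.71 and -3.82 in E2 and -1.47 to -1.30 in vehicle (3.14 ± 0.19). Sfrp2, a secreted antagonist of Wnt proteins, was 2.22 ± 0.17 higher, Lgr5, a receptor that strengthens Wnt signals, 2.06 ± 0.26 higher, and Ptch1, the hedgehog receptor, 1.67 ± 0.46 higher. Hhip, which binds hedgehog ligands, was 2.29 ± 0.38 lower, Klf4, a factor of epithelial differentiation, 1.33 ± 0.11 lower and Wnt5a 1.07 ± 0.30 lower. Hoxa10, needed for uterine identity, did not pass (adjusted p = 0.549).

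In the extracellular matrix list 19 of 57 were higher in BPA and 21 lower, against 33.9% and 26% of all probes tested. Its median of 0.14 turned to -0.01 without E2 replicate 3 and to -0.02 with spike-in scaling. Without E2 replicate 3, or on unscaled arrays, 12 were higher, and after spike-in scaling 10. Col6a2, a chain of collagen VI, was at 1.27, 1.07 and 1.64 in BPA and 3.90 and 4.02 in E2 (-2.63 ± 0.22), and a further probe for it at -1.41. Mmp9, a gelatinase, was at -0.86, -0.90 and -0.23 in BPA and -3.33 and -3.62 in E2 (2.81 ± 0.38). Col1a1, of collagen I, was 1.18 ± 0.42 lower and Sparc, a matrix protein, 0.95 ± 0.24 lower. Decorin (Dcn) and Timp3, an inhibitor of matrix proteases, were 0.92 ± 0.09 and 1.36 ± 0.12 higher.

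Immune genes differed in both directions, as did all probes tested (33.9% higher and 26% lower). Of 54 genes of complement, antigen presentation and the interferon response 22 were higher in BPA and 13 lower, with a median of 0.18. Without E2 replicate 3 the higher count was 14, with spike-in scaling 11, and the lower count was 8 without BPA replicate 1 and 6 without E2 replicate 2 or with slide as a block. H2-Ab1, a chain of the class II molecules that present antigen, was at 4.69, 4.75 and 4.48 in BPA, 3.15 and 3.27 in E2 and 4.14 to 4.49 in vehicle (1.43 ± 0.19), Cd74, its chaperone, differed by 1.60 ± 0.20 and Ciita, their transcriptional activator, by 1.67 ± 0.26. Of the complement genes C4b was 1.85 ± 0.16 higher and Cfb, factor B, 2.45 ± 0.24 lower. The interferon-induced genes Isg15 and Oas1a were 1.40 ± 0.30 and 0.96 ± 0.22 lower in BPA. Isg15 was at 0.22, 0.75 and 0.27 in BPA, 1.81 on both E2 arrays and -0.23 to 0.40 in vehicle.

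Of 42 chemokine and inflammatory genes 17 were higher in BPA and 11 lower (7 lower without E2 replicate 3; 9 higher with spike-in scaling), with a median of 0.38. Saa3, an acute phase protein, was at 0.67, 0.35 and 0.51 in BPA, -3.21 and -2.54 in E2 and -3.49 to -1.89 in vehicle, and was thus above vehicle in BPA (3.21, adjusted p = 0.0318) and not in E2 (-0.17, adjusted p = 0.896). BPA and E2 differed by 3.38 ± 1.01 (adjusted p = 0.00942). Cxcl13, a chemokine that draws B cells, was at -1.15, -1.30 and -3.00 in BPA and -6.25 and -4.79 in E2 (3.70 ± 1.02, adjusted p = 0.00567), a call lost without E2 replicate 2 (adjusted p = 0.072). Ccl11, which draws eosinophils, was at -1.07, -1.23 and -1.10 in BPA, 0.72 and 1.04 in E2 and -1.24 to -0.81 in vehicle (-2.01 ± 0.21). Ccl20, a chemokine of epithelia, was above background on 2 of 3 BPA arrays and differed by -2.20 ± 0.64. Its call was lost without E2 replicate 3 (-1.47, adjusted p = 0.135) and in a fit of the 5 arrays alone (adjusted p = 0.115).

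For detoxification 19 of 51 genes were higher in BPA (12 with spike-in scaling) and 18 lower (median 0.29), against 33.9% and 26% of all probes tested. Cyp1b1, a cytochrome P450 that hydroxylates E2, was at -1.61, -3.12 and -1.82 in BPA, -5.47 and -5.62 in E2 and -3.40 to -2.59 in vehicle (3.36 ± 0.71). Cyp1a1, the usual marker of the aryl hydrocarbon receptor, did not pass (adjusted p = 0.312) and was above background on 1 of the E2 arrays. The sulfotransferase Sult1a1, which acts on phenols, was 2.39 ± 0.20 higher and the monooxygenase Fmo2 2.40 ± 0.19 higher. Gpx2, an epithelial glutathione peroxidase, was at 1.63, 1.43 and 1.72 in BPA and 3.47 and 3.23 in E2 (-1.76 ± 0.23), and was 0.95 above vehicle with BPA (adjusted p = 0.00901). Txnrd1, thioredoxin reductase, was 1.63 ± 0.10 lower.

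Among the 22 transcripts that the study had also measured by PCR, 13 were lower in BPA than in E2, 3 were higher and 6 did not pass, with a median of -0.75. The study chose them on uteri of this kind, so they are not independent of the direction. Besides the mitotic genes above, Ppp2r2c, a subunit of phosphatase PP2A, was at -2.19, -1.92 and -1.91 in BPA and 0.50 and 1.21 in E2 (-2.87 ± 0.30), and Inhbb, a subunit of activin and inhibin, differed by -1.76 ± 0.31. The cell cycle inhibitor Cdkn1a differed by -1.02 ± 0.35 (adjusted p = 0.021), Gadd45g, a stress-induced growth arrest gene, by -1.07 ± 0.38 (adjusted p = 0.0242; -0.65 without E2 replicate 3, adjusted p = 0.267; call also lost without BPA replicate 1, with slide as a block and with quantile normalization), Stat5a by -0.77 ± 0.20, the matrix signal Ccn1 by -0.66 ± 0.22 and Mvp, the major vault protein, by -0.39 ± 0.14. Some of these calls rested on single arrays or on the scaling. That of Cdkn1a was lost without BPA replicate 2 (adjusted p = 0.07), without either E2 array (0.0992 and 0.0684), with slide as a block (0.069) and under spike-in scaling (0.0509). For Ccn1 it was lost without BPA replicate 3 (adjusted p = 0.0633), without either E2 array (0.0975 and 0.0561) and under spike-in scaling (0.0987). The call of Mvp was lost without BPA replicate 1 (adjusted p = 0.0584) or 2 (0.0929), without either E2 array (0.0539 and 0.168), with quantile normalization (0.214), with normexp (0.0763) and under spike-in scaling (0.22), and that of Stat5a under spike-in scaling (0.0559). Per1, a clock gene, was at 1.62, 1.49 and 1.34 in BPA and 0.14 and 0.07 in E2 (1.38 ± 0.23), and the transcription factor Sox8 was 0.92 ± 0.21 higher, a call lost with quantile normalization (0.54, adjusted p = 0.0576), with normexp as well (0.13, 0.252) and under spike-in scaling (0.12). The immediate early genes Fos (-0.74 ± 0.31, adjusted p = 0.0536) and Nr4a1 (0.22, adjusted p = 0.111) did not pass. Fos passed with quantile normalization (adjusted p = 0.0199), with normexp (0.0459), on unscaled arrays (0.0385), with the replicate block (0.0372), with a robust prior (0.045) and without BPA replicate 1 (0.0267), and Nr4a1 with quantile normalization (0.0149) and normexp (0.0147). Axin1 of the Wnt pathway did not pass (adjusted p = 0.624), nor did Wnt4 (0.45 ± 0.20, adjusted p = 0.0662; 0.0386 in a fit of the 5 arrays alone), which was below vehicle with both compounds (-0.68 and -1.13).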

How the data were processed

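Uteri of ovariectomized mice were hybridized by the authors as 500 ng Cy3-labelled RNA, 1 uterus per 1-colour Agilent array (20 arrays, 6 slides). The authors extracted spots with Feature Extraction 9.5, and the deposited scanner files hold intensity, background subtracted but not scaled between arrays. Other columns, per the file headers, are flags that mark spots well above background, saturated, outlying or control. Aligners and read depth do not apply; signal over background sets the precision.

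Control spots and outlying spots were left out, spots of a probe were averaged, and log2 intensity was set relative to the 75th percentile of each array (1320 to 2046). Probe positions are on mm7 per the file headers, and 17557 of 25060 RefSeq accessions matched a RefSeq gene table, which named 23082 probes. Group means of all 7 groups (20 arrays) were estimated in limma 3.58.1 under R 4.3.3 (Python 3.11.15 elsewhere); contrasts were two-sided, and a probe was called at a Benjamini-Hochberg adjusted p below 0.05 over 30927 probes. Where no array of a group was above background, folds are lower bounds against the lowest signal above background on each array.

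Named genes were the 10 largest differences in each direction above background on all 5 arrays with groups that did not overlap, the 5 largest bounds in each direction, the furthest called members of each of 19 lists and the transcripts measured by PCR; clone and accession names and pancreas, liver and sperm markers were left out of the first 2 sets. Lists used the probe with the highest mean signal per gene. Members and lists were chosen with earlier results of these data known, and other list members and markers named as examples were chosen after their values were seen. Values of some genes picked by the rule are not reported here. Alternatives were other background corrections, scalings, filters, slide or replicate blocks, and leaving out arrays. The script was tested on simulated data.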

Additional observations from a re-analysis of the deposited data

Results flagged for a closer look

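The difference between BPA and E2 was itself different at 24 h and 2 h for 71 of the 80 named probes by the test of that difference in limma (16468 of all 30927 probes, 53.2%). For 12 of them BPA and E2 differed past the threshold in opposite directions at the 2 times. The share of all 30927 probes that did so was not counted, so 12 cannot be called many or few. At 2 h Cldn1 was 2.37 lower in BPA than in E2 and at 24 h 3.30 higher, a difference between times of 5.67 ± 0.47 (adjusted p = 1.99e-07). Lgi1 (-1.71 at 2 h), Wnt11 (-0.58) and Sox8 (-0.72) were likewise lower in BPA at 2 h and higher at 24 h. The others were higher in BPA at 2 h and lower at 24 h, with 2 h differences of 1.34 for Uox, 1.42 for Fam3b, 0.73 for Unc5cl, 0.67 for Crtac1, 0.98 for Rrp12, 0.87 for Cfb, 1.28 for Ppp2r2c and 0.38 for Mvp. The largest of these 2 h p-values was that of Mvp (adjusted p = 0.0499), and the 24 h calls of Mvp and Sox8 were lost with quantile normalization. The named genes were chosen partly by their 24 h difference, so the size of the change between times is a description.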

How the results depend on the processing

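The count of called probes was 18525 and stayed within 1.5 times of that under each alternative but 2, scaling to spike-in controls (8551, with 3799 higher and 4752 lower) and a minimum of 2-fold (6953, with 4206 higher and 2747 lower). The number of higher minus lower calls was 2469, and it reversed to -28 with normexp and quantile normalization, -1163 when arrays were left unscaled and -953 under spike-in scaling. Leaving out each of the 5 arrays gave 15098 to 17569 calls. Left out by choices made after seeing the data, the vehicle group gave 18513 and the 2 h E2 group 18574. Replicate numbers 2 and 3 occur in both groups, and the deviations of same-numbered arrays from their group means correlated at -0.18 and -0.26. With 2 E2 arrays the deviations within that group mirror each other, so these values cannot decide whether the numbers are pairs. The numbers were not taken as pairs, and a fit with the replicate number as a block called 18111. Of 1520 values of named genes under alternatives, 47 lost their call, 9 gained one and none reversed. The cause was not tested. With 2 E2 arrays, a probe's spread rested on all 20 arrays. In simulated data with the same groups only a small share of probes was changed, unlike the 59.9% called here. There 73% of log2 changes of 1 and 92% of 2 were recovered, which does not measure recovery in this comparison.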

Other observations

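Marker lists of several other cell types lay apart on the BPA and E2 arrays at 24 h. Of 7 nerve and glia markers 6 were higher in BPA and none lower, with sums of 5.02 to 5.05 in BPA, 4.03 and 3.89 in E2 and 5.02 to 5.76 in vehicle. Of 7 markers of ovary and oviduct 5 were higher in BPA and none lower, with sums of 1.72 to 1.83 in BPA, 0.921 and 0.934 in E2 and 1.97 to 2.34 in vehicle. Uterine gland markers were 3 higher and 3 lower of 6. Mesothelial markers summed to 20.4 to 21.6 in BPA, 41.7 and 43.7 in E2 and 20.5 to 20.9 in vehicle, with 2 of 6 higher in BPA and 1 lower. The lower 1 was Krt19, which is also on the epithelial list, at 3.66, 3.51 and 3.61 in BPA and 5.18 and 5.29 in E2. The median difference of the mesothelial list was 0.62, so its sum does not stand for mesothelium apart from epithelium. Of 5 eosinophil markers 4 were higher in BPA and none lower, with the defining markers Epx and Prg3 well above background on none of the 5 arrays.

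Of 4642 genes with more than 1 tested probe, 2037 had each probe called in the same direction and 125 had probes called in opposite directions.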
